A study of Homo sapiens with 12 samples.

Results

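Receptor tyrosine kinases are cell-surface receptors that bind a ligand outside the cell, pair up and phosphorylate each other and their adaptors inside it. The signal then runs mainly through the RAS and ERK kinases and through PI3K and AKT. In glioblastoma several of these receptors are known drivers, with EGFR and PDGFRA amplified in subsets of tumours, while MET, AXL and others are known for taking over when one receptor is blocked. The 10 receptor genes described here were EGFR, PDGFRA, PDGFRB, MET, AXL, FGFR1, ERBB2, IGF1R, DDR2 and NTRK2, taken by symbol from a matrix of 31654 usable gene rows. All 10 had a row, and 9 passed the filter for testing.

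The samples were 12 RNA sequencing libraries of human glioblastoma cell lines, 3 from each of 4 lines. U251TR and U87TR are temozolomide-resistant sublines, made by repeated exposure to rising doses of the alkylating drug temozolomide, and U251MG and U87MG are the long-established lines they came from. All were grown in DMEM with serum, and no label says whether drug was present at harvest. Each parent gave 1 resistant subline, so resistance cannot be told apart from other changes during derivation. Whether the 3 libraries per line were separate cultures is not stated, and the p-values then reflect no more than library-to-library spread, which may be technical.

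Levels are in FPKM, fragments scaled to gene length and to the size of the library, which allows levels of different genes to be set side by side. Between 13135 and 14122 genes per library reached 1 FPKM, and no count table was used, so the depth is unknown. In bulk RNA, fewer cells with a transcript and less of it per cell cannot be told apart. The glial markers GFAP, S100B, VIM, NES, SOX2, SLC1A3 and FABP7 were all at 1 FPKM or more in every U251TR and U251MG library. In U87TR 4 of the 7 were, and in U87MG 3 were, with S100B and SOX2 listed at 0 in all 3 U87MG libraries. Of 6 microglial and blood markers 4 were in the matrix, and their summed level was at most 0.9 FPKM in any library. One parental library, U251MG replicate 2, differed from its group: Spearman's rho across genes was 0.977 and 0.978 with its group's other libraries, which reached 0.993 with each other. It lay outside the range of the other 2 for all 10 receptors, as it did for 83.5% of tested genes, and its median departure over the 9 tested receptors was 0.68 on the log2 scale against 0.23 over all tested genes. Receptor results that it changed most are given with and without it.

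**Figure D1:**
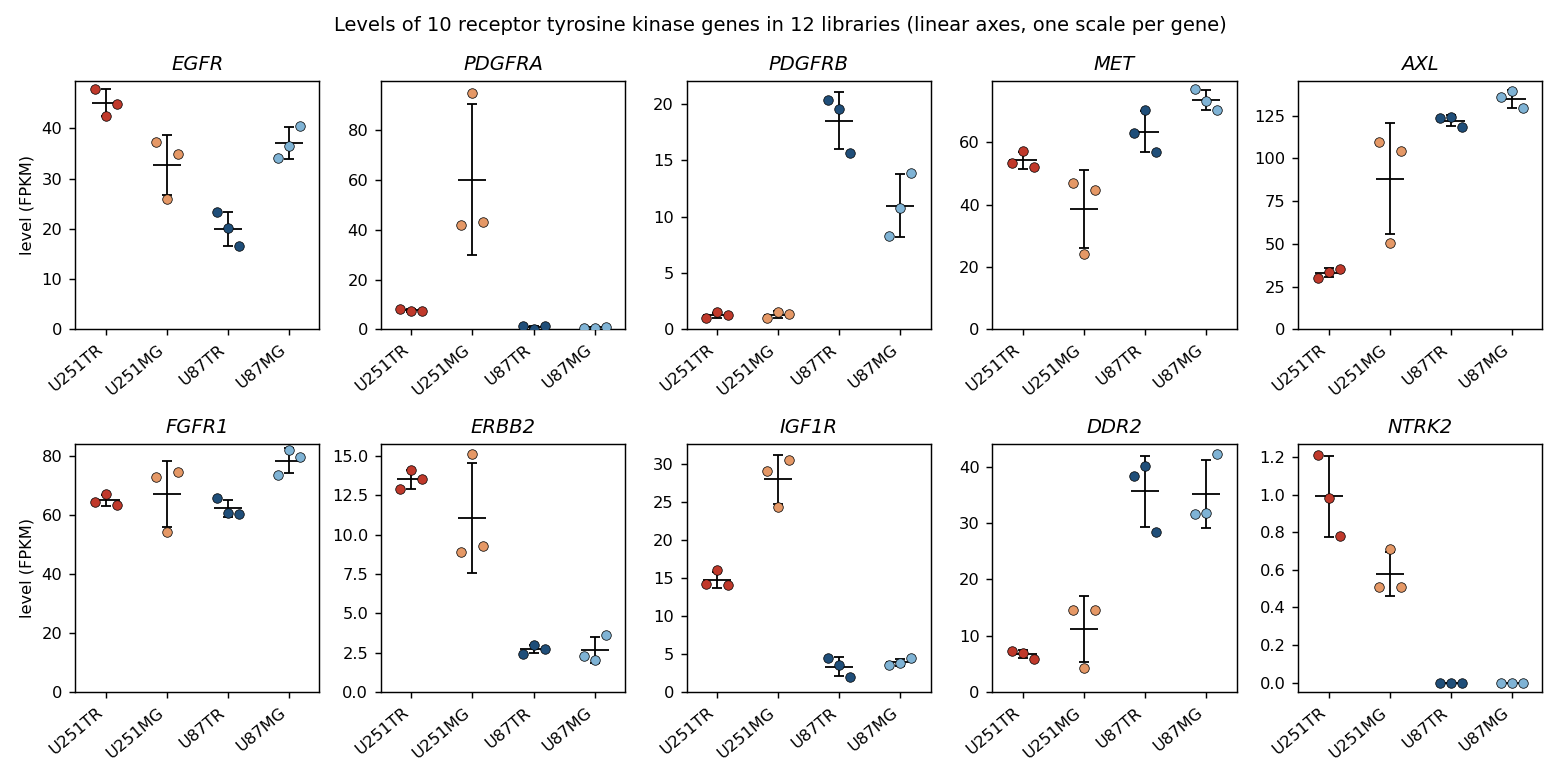
Level in FPKM (vertical axes, linear, one scale per gene) of the 10 receptor genes in each library of U251TR, U251MG, U87TR and U87MG. Points are libraries, the horizontal line is the mean and bars are 1 SD (n = 3); the lone U251MG point at 94.93 FPKM for PDGFRA is replicate 2.

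The first comparison set the resistant line U251TR against its parent U251MG. PDGFRA, AXL and IGF1R were lower in U251TR, EGFR and MET were higher, and PDGFRB, FGFR1, ERBB2 and DDR2 did not pass the test. The 5 calls among 9 tested receptors stood beside a background of 53.2% of 15449 tested genes called in this comparison, so the share among the receptors was near that of all genes. Higher calls were 2 against a background of 33.6%, and lower calls 3 against 19.6%. The libraries of 5 receptors did not overlap, against 58.9% of genes, and 2 receptors passed at 2-fold or more, against 13.6%. Tests used limma on log2(FPKM + 1) with Benjamini-Hochberg adjustment over all tested genes and a threshold of 0.05. Every fold given is of FPKM + 1 and understates the ratio of the levels for low genes. The median absolute log2 fold change was 0.50 over the receptors and 0.37 over all tested genes.

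PDGFRA, the receptor for PDGF-A and PDGF-C and a marker of the proneural glioblastoma class, had 8.33, 7.56 and 7.2 FPKM in the U251TR libraries, against 41.87, 94.93 and 43.07 FPKM in the U251MG libraries. The groups were far apart, and replicate 2 of the parent held a far higher level than the other libraries of that line. The log2 fold change was -2.70 (SE 0.29, adjusted p = 1.03e-05, limma), and without U251MG replicate 2 it was -2.32. Of all tested genes, 1.09% had an absolute change as large.

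AXL, the receptor for the vitamin K-dependent ligand GAS6 and a marker of the mesenchymal state, had 30.18, 33.61 and 35.57 FPKM in the U251TR libraries, against 109.72, 50.64 and 104.19 FPKM in the U251MG libraries. All U251TR libraries lay below the lowest parental library, which was again replicate 2. AXL fell by 1.31 on the log2 scale (limma, SE 0.22, adjusted p = 0.000321), and by 1.66 without that library. IGF1R, which binds the insulin-like growth factors, had 14.2, 16.05 and 14.12 FPKM in U251TR, against 29.18, 24.41 and 30.54 FPKM in U251MG. The libraries did not overlap, and IGF1R fell by 0.88 on the log2 scale (limma, SE 0.18, adjusted p = 0.0015).

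EGFR, the receptor for EGF, TGF-alpha and related ligands, had 47.83, 42.53 and 44.85 FPKM in the U251TR libraries, against 37.21, 25.99 and 34.88 FPKM in the U251MG libraries. The groups did not overlap, but the gap was small beside the spread of the parent. The log2 fold change was 0.47 (SE 0.14, adjusted p = 0.0151, limma). That call was lost with median-of-ratios scaling (adjusted p = 0.0783) and without U251TR replicate 1 (adjusted p = 0.0539), and the value without U251MG replicate 2 was 0.31.

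MET, the receptor for hepatocyte growth factor, had 53.44, 57.31 and 51.92 FPKM in U251TR, against 46.87, 24.31 and 44.7 FPKM in U251MG. All resistant libraries lay above the parental ones, narrowly so for parental replicates 1 and 3. The log2 fold change was 0.53 (SE 0.19, adjusted p = 0.0328, limma) and only 0.24 without U251MG replicate 2. The call was lost in 6 of 15 other settings, among them the absence of any 1 U251TR library.

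DDR2, a receptor for fibrillar collagen, had 7.31, 6.97 and 5.93 FPKM in U251TR, against 14.49, 4.33 and 14.6 FPKM in U251MG. Replicate 2 was the lowest of all 6 libraries while the other parental libraries lay well above the resistant ones. The log2 fold change of -0.50 (limma, SE 0.33, adjusted p = 0.235) did not pass, whereas without replicate 2 it was -1.01 and passed (adjusted p = 0.000229). ERBB2, the partner of the other ERBB receptors with no ligand of its own, had 12.9, 14.13 and 13.51 FPKM in U251TR, against 8.89, 15.11 and 9.25 FPKM in U251MG. Its log2 fold change of 0.30 (limma, SE 0.19, adjusted p = 0.206) became 0.53 and passed without replicate 2 (adjusted p = 0.0121).

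FGFR1, a receptor for fibroblast growth factors such as FGF2, averaged 64.92 ± 1.88 FPKM in U251TR and 67.11 ± 11.2 FPKM in U251MG (SD, n = 3 each). The groups overlapped and the 95% interval of its log2 fold change ran from -0.27 to 0.20. Without replicate 2 it was -0.18 and passed (adjusted p = 0.0422, limma). PDGFRB, the receptor for PDGF-B and PDGF-D, was low in both, at 1.25 ± 0.241 FPKM in U251TR and 1.29 ± 0.293 FPKM in U251MG (SD, n = 3 each). Its interval ran from -0.40 to 0.35. Without U251MG replicate 2, 8 of the 9 tested receptors passed in this comparison, all but PDGFRB, against 58% of all tested genes in that setting.

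**Figure D2:**
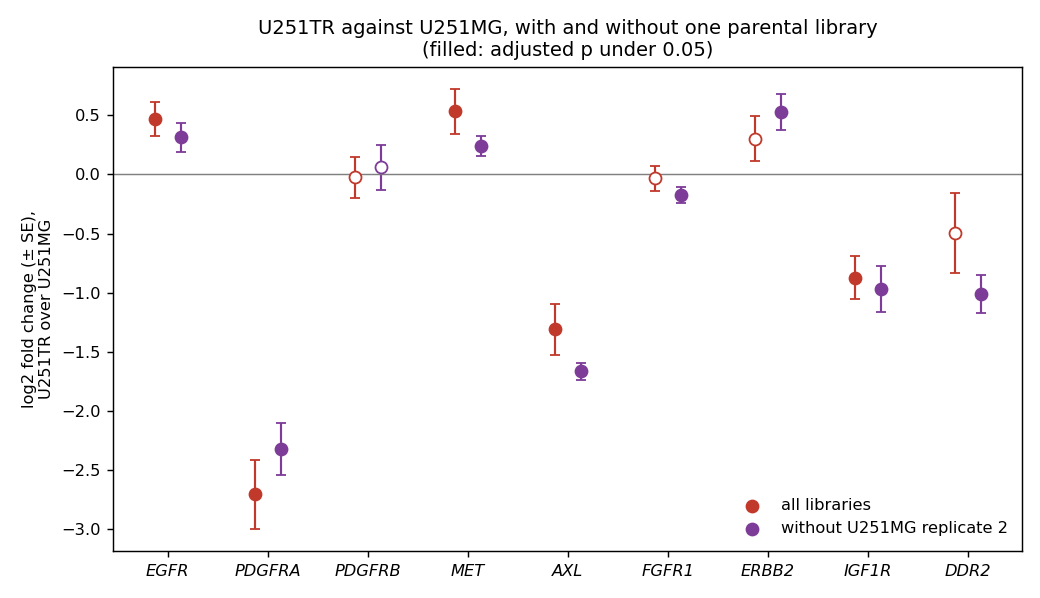
Log2 fold change of U251TR over U251MG (vertical axis, ± SE) for the 9 tested receptor genes, from all libraries and without U251MG replicate 2, with filled points for adjusted p under 0.05. EGFR, PDGFRA, MET, AXL and IGF1R passed both ways, while DDR2, ERBB2 and FGFR1 passed only without that library.

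NTRK2, the receptor for brain-derived neurotrophic factor, had 1.21, 0.98 and 0.78 FPKM in the U251TR libraries, against 0.51, 0.71 and 0.51 FPKM in the U251MG libraries. It was listed at 0 in every U87TR and U87MG library. These levels were too low for the filter, which asked for 1 FPKM in at least 3 libraries. With no filter, over 31654 genes, its log2 fold change in U251TR was 0.33 (SE 0.09, adjusted p = 0.0162, limma).

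The second comparison set U87TR against its parent U87MG. EGFR and FGFR1 were lower in U87TR, PDGFRB was higher, and the other 6 tested receptors did not pass. The background of genes called was 27.8%, beside which 3 of 9 is a similar share. The 1 higher call stood beside a background of 10.6% and the 2 lower calls beside 17.2%. A called change of 2-fold or more was seen in 5.19% of genes, and the largest called receptor change here, that of EGFR, was smaller than that. The median absolute log2 fold change was 0.21 over the receptors and 0.22 over all tested genes. U87TR libraries carry code numbers from a separate run of numbers, and that split cannot be told apart from resistance here.

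EGFR had 23.29, 20.08 and 16.63 FPKM in the U87TR libraries, against 34.1, 36.56 and 40.36 FPKM in the U87MG libraries. Every resistant library was below every parental one. EGFR fell by 0.86 on the log2 scale (limma, SE 0.14, adjusted p = 0.000772), and the call held in each of 15 other settings.

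PDGFRB had 20.31, 19.55 and 15.63 FPKM in U87TR, against 8.28, 10.76 and 13.82 FPKM in U87MG. The groups did not overlap, and the highest parental library was replicate 3, which stood somewhat apart from its line over all genes. The log2 fold change was 0.72 (SE 0.17, adjusted p = 0.00849, limma), and 0.89 without that library. PDGFRB is also a marker of pericytes. The summed level of 5 other pericyte and fibroblast markers (RGS5, ACTA2, DCN, LUM and FAP) was 72.6 to 85.05 FPKM in U87TR and 41.7 to 48.55 FPKM in U87MG, and its part in the result was not tested. Within that list ACTA2 averaged 51.8 FPKM in U87TR and 16.4 FPKM in U87MG, and LUM 11.9 FPKM in U87TR and 5.27 FPKM in U87MG. RGS5 averaged 3.69 FPKM in U87TR and 3.34 FPKM in U87MG. FAP went the other way, at 10.4 FPKM in U87TR and 19.3 FPKM in U87MG. So did DCN, at 0.277 FPKM in U87TR and 1.75 FPKM in U87MG. None of the 5 was at 0 in all 3 libraries of either U87 line. The same sum was 25.84 to 28.11 FPKM in U251TR and 5.05 to 5.5 FPKM in U251MG. PDGFRB averaged 1.25 FPKM in U251TR and 1.29 FPKM in U251MG.

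FGFR1 had 65.56, 60.52 and 60.31 FPKM in U87TR, against 73.51, 81.81 and 79.59 FPKM in U87MG. The libraries did not overlap, with a log2 fold change of -0.33 (limma, SE 0.11, adjusted p = 0.0394). That call was lost in 11 of 15 other settings (adjusted p up to 0.128), including the absence of any 1 library and all 3 other scalings. MET and AXL also had no overlap between groups, yet neither passed. MET had 63.07, 70.29 and 57.01 FPKM in U87TR, against 77.02, 73.32 and 70.42 FPKM in U87MG, with an interval of the log2 fold change from -0.63 to 0.20. AXL averaged 122.0 ± 3.33 FPKM in U87TR and 134.7 ± 5 FPKM in U87MG (SD, n = 3 each), with an interval from -0.62 to 0.34. The fit shares each gene's spread over all 12 libraries, so these intervals, and that of DDR2 below, also carry U251MG replicate 2. In U251TR against U251MG the AXL SE was 0.22 with that library and 0.074 without it. Neither MET nor AXL passed in any of 15 other settings, among them the fit on the 6 U87 libraries alone. For comparison, 46.6% of tested genes had groups that did not overlap here, against 5 of the 9 receptors.

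DDR2 averaged 35.64 ± 6.28 FPKM in U87TR and 35.13 ± 6.08 FPKM in U87MG (SD, n = 3 each), with an interval from -0.71 to 0.75. IGF1R was low in both U87 lines, at 3.33 ± 1.22 FPKM in U87TR and 3.92 ± 0.485 FPKM in U87MG, and so was ERBB2, at 2.72 ± 0.271 FPKM in U87TR and 2.66 ± 0.84 FPKM in U87MG (SD, n = 3 each). PDGFRA was near or below 1 FPKM, with 1.26, 0.21 and 1.15 FPKM in U87TR and 0.69, 0.69 and 0.88 FPKM in U87MG. None of these 4 passed.

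**Figure D3:**
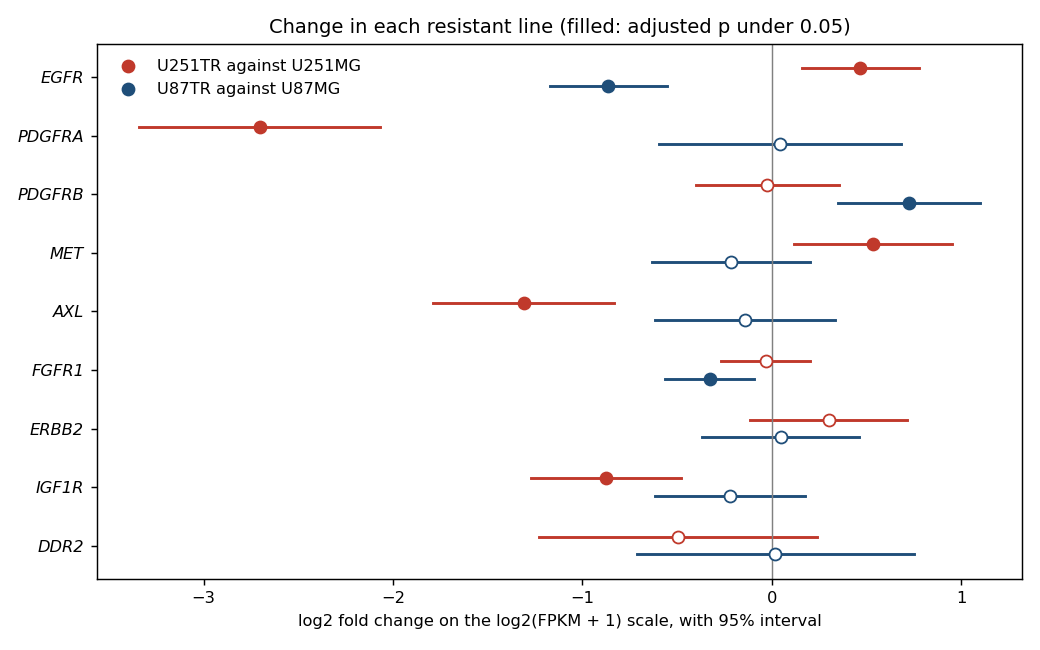
Log2 fold change with its 95% interval (horizontal axis) of each tested receptor gene in U251TR against U251MG and in U87TR against U87MG, with filled points for adjusted p under 0.05. EGFR passed in both with opposite signs, and PDGFRA at -2.70 in U251TR is the point farthest from 0.

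The difference between the 2 changes was tested directly, as the U87 change minus the U251 change. The separate run of U87TR code numbers lies in this contrast too and cannot be told apart from it. The difference passed for 5 of 9 receptors, against 47.6% of all tested genes. It was positive for 3, beside 15.4% of genes, and negative for 2, beside 32.1%, and 3 passed at 2-fold or more, beside 18.4%. For EGFR the difference was -1.33 on the log2 scale (limma, SE 0.20, adjusted p = 0.000204), with every U87TR library below its parent and every U251TR library above its own. For PDGFRA it was 2.75 (SE 0.41, adjusted p = 0.000202) and for AXL 1.17 (SE 0.31, adjusted p = 0.00836, limma). These 3 held in each of 20 other settings. The differences for PDGFRB (0.75, SE 0.24, adjusted p = 0.0245) and MET (-0.75, SE 0.27, adjusted p = 0.0379, limma) were lost in 6 and 12 of the 20. Without U251MG replicate 2 the MET value was -0.45, and DDR2, at 0.51 with that library (SE 0.47, adjusted p = 0.400), was 1.03 and passed (adjusted p = 0.00186, limma). IGF1R, at 0.65 (SE 0.26, adjusted p = 0.0530, limma), just missed the threshold and passed in 7 of 20 other settings, so its lower level in U251TR is not shown to be particular to that line.

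The third comparison set the parents side by side, U87MG against U251MG. It shares its libraries with both resistance comparisons. PDGFRB, DDR2, MET and AXL were higher in U87MG, PDGFRA, IGF1R and ERBB2 were lower, and EGFR and FGFR1 did not pass. This was 7 of 9 receptors, beside a background of 72.3% of genes called. The 4 higher calls stood beside 32.2% and the 3 lower calls beside 40.1%. Of the receptors 5 passed at 2-fold or more, against 31.6% of genes, and 7 had no overlap between groups, against 72.3%. The resistant lines, which share no library with the parents but do with the resistance comparisons, were compared in the same way, U87TR against U251TR. In that comparison the separate run of U87TR code numbers cannot be told apart from the line. There too 7 of 9 passed, with a background of 72.6%. The 3 higher calls stood beside 25.5% and the 4 lower calls beside 47.1%. All 7 were at 2-fold or more, against 32.6% of genes, and 7 had no overlap between groups, against 78.7%.

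The PDGF receptors had opposite signs. PDGFRA averaged 0.753 ± 0.11 FPKM in U87MG and 59.96 ± 30.3 FPKM in U251MG, and the log2 fold change of -5.01 (limma, SE 0.29, adjusted p = 1.26e-08) was among the largest 0.932% of all tested genes. PDGFRB averaged 10.95 ± 2.78 FPKM in U87MG and 1.29 ± 0.293 FPKM in U251MG (SD, n = 3 each), a log2 fold change of 2.36 (limma, SE 0.17, adjusted p = 1.06e-07). Between U87TR and U251TR the same contrast stood at -2.27 for PDGFRA and 3.11 for PDGFRB.

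IGF1R averaged 3.92 ± 0.485 FPKM in U87MG and 28.04 ± 3.22 FPKM in U251MG, a log2 fold change of -2.56 (limma, SE 0.18, adjusted p = 7.91e-08). ERBB2 averaged 2.66 ± 0.84 FPKM in U87MG and 11.08 ± 3.49 FPKM in U251MG, with a log2 fold change of -1.71 (SE 0.19). DDR2 averaged 35.13 ± 6.08 FPKM in U87MG and 11.14 ± 5.9 FPKM in U251MG (SD, n = 3 each), with a log2 fold change of 1.72 (SE 0.33), and of 1.204 without U251MG replicate 2. In all 3 the libraries of the parents were fully apart.

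MET was 1.96-fold higher in U87MG (log2 value 0.97, SE 0.19, and 0.67 without U251MG replicate 2) and AXL 1.61-fold higher (SE 0.22). The AXL difference was sensitive to U251MG replicate 2: its log2 value was 0.68 with that library and 0.33 without it, and the call was lost in the fit on the 6 parental libraries alone (adjusted p = 0.0644, limma). AXL was 3.61-fold higher in U87TR than in U251TR. EGFR, which did not pass between the parents (0.19, SE 0.14, adjusted p = 0.254), was lower in U87TR than in U251TR by 1.14 on the log2 scale (limma, SE 0.14, adjusted p = 1.22e-05). FGFR1 had the flattest profile of the 10, with group means between 62.13 and 78.3 FPKM and overlapping libraries at each step of the order U87MG, U251MG, U251TR, U87TR. Between the parents its log2 fold change of 0.23 (limma, SE 0.11, adjusted p = 0.0697) passed in 4 of 15 other settings. MET in U87TR against U251TR did not pass (0.22, limma, SE 0.19, adjusted p = 0.317), but did in 2 of 15 other settings.

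The order of the lines differed by receptor. EGFR ran U251TR, U87MG, U251MG, U87TR from high to low, with overlap only between U87MG and U251MG. MET ran U87MG, U87TR, U251TR, U251MG, with overlap between U87TR and U251TR. AXL ran U87MG, U87TR, U251MG, U251TR and no neighbouring groups overlapped.

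Promoter sequences of the 3 receptors with the largest absolute log2 fold changes between the parents are shown for their make-up of CG dinucleotides, the target of DNA methylation, which was not measured. Each is the RefSeq window of 250 bases before to 50 after a start site on build GRCh38.p14, on the gene's strand, with every CG in capitals. PDGFRA has windows at chr4:54229043-54229342 and chr4:54233710-54234009 (plus strand), PDGFRB at chr5:150155796-150156095 (minus strand) and IGF1R at chr15:98648289-98648588 (plus strand).
PDGFRA, upstream window: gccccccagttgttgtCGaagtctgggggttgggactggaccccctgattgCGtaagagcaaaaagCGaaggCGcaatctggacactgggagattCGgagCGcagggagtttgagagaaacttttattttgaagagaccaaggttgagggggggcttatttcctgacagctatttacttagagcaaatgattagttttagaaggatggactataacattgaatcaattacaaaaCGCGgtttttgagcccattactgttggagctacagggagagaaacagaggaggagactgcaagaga
PDGFRA, downstream window: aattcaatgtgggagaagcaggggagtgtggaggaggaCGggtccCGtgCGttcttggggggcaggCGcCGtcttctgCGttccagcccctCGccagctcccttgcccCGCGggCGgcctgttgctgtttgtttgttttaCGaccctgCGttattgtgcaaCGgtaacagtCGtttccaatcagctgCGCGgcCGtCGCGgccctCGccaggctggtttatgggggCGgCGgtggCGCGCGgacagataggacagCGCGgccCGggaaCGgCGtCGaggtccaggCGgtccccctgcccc
PDGFRB: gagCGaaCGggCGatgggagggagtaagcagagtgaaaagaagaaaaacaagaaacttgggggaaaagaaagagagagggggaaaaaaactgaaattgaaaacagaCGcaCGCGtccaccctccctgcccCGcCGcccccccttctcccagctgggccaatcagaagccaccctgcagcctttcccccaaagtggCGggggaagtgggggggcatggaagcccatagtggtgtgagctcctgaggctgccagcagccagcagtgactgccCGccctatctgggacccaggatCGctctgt
IGF1R: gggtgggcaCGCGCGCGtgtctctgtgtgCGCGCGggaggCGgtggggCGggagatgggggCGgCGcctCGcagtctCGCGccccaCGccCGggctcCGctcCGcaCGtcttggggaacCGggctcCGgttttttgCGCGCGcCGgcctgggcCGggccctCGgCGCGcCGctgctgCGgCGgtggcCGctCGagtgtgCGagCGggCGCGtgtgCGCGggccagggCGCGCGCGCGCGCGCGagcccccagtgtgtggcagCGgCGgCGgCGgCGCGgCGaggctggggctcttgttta

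The upstream and downstream PDGFRA windows hold 8 and 32 CG dinucleotides, the PDGFRB window 11 and the IGF1R window 55. The median over 35116 such windows was 14, and 0.373% of them had as many as IGF1R. Among the receptors higher in U87MG, the DDR2 windows hold 0, 5 and 3, the AXL windows 7 and 17, and the MET window 30. Among those lower in U87MG, the ERBB2 window holds 24. The GC box, GGGCGG on either strand, occurs 2 times each in the downstream PDGFRA window, the PDGFRB window and the IGF1R window. No such letters are in the upstream PDGFRA window. Of all windows, 44.95% hold it at least once. These are descriptions of the letters alone.

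The make-up of the receptors by line shows which of them had the most transcript per length. Over 58 receptor tyrosine kinase genes, the summed level was 819.3 ± 17.7 FPKM in U251TR and 925.6 ± 56.7 FPKM in U251MG, and 488.7 ± 26.7 FPKM in U87TR and 571.6 ± 12.7 FPKM in U87MG (SD, n = 3 each). The 10 genes described here held 29.6% ± 1.16 of that sum in U251TR and 36.5% ± 1.92 in U251MG, against 67.2% ± 1.07 in U87TR and 66.0% ± 2.48 in U87MG (SD, n = 3 each). In the U251 lines the Eph receptor EPHA2 and the collagen receptor DDR1 had the highest levels of the family, with EPHA2 at 196.5 ± 14.9 FPKM in U251TR and 177.6 ± 68.1 FPKM in U251MG (SD, n = 3 each). In the U87 lines AXL had the highest level, followed by MET and FGFR1 in U87TR and by FGFR1 and MET in U87MG.

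Within the 10, AXL held 13.7% ± 1.19 of the summed FPKM in U251TR and 25.5% ± 7.31 in U251MG. PDGFRA held 3.177% ± 0.245 in U251TR and 18.5% ± 11.7 in U251MG (SD, n = 3 each). By library the U251MG share of PDGFRA was 11.6%, 32.0% and 12.05%, and its mean without replicate 2 was 11.8%. EGFR and MET had larger shares in U251TR, with EGFR at 18.6% ± 1.36 in U251TR and 9.6% ± 0.76 in U251MG and MET at 22.4% ± 0.701 in U251TR and 11.2% ± 2.61 in U251MG. In the U87 lines the shares were closer, with AXL at 37.2% ± 1.66 in U87TR and 35.8% ± 1.86 in U87MG and EGFR at 6.06% ± 0.667 in U87TR and 9.81% ± 0.617 in U87MG (SD, n = 3 each).

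**Figure D4:**
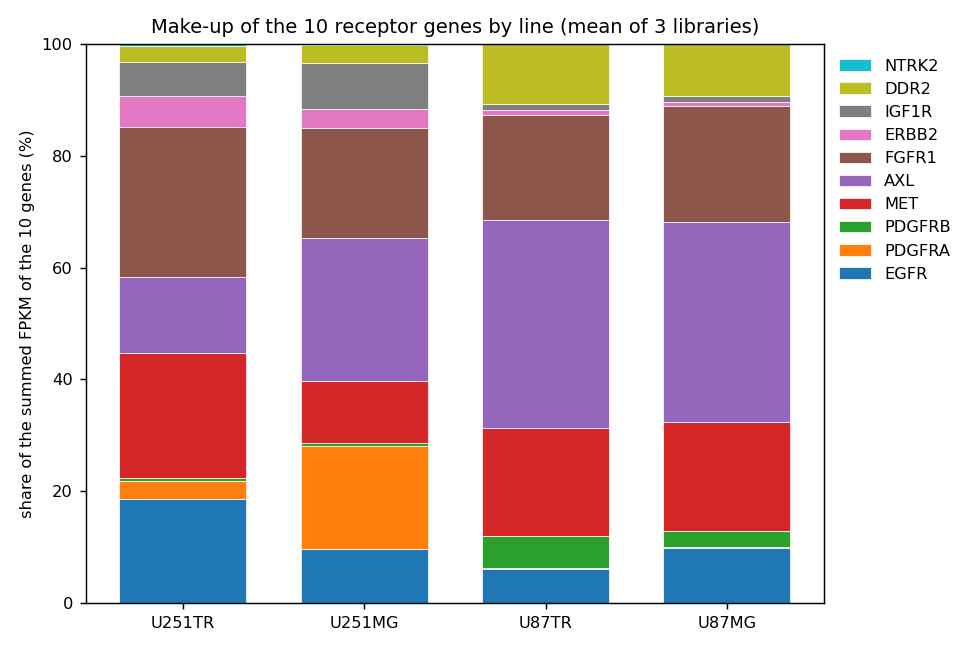
Share of the summed FPKM of the 10 receptor genes held by each (vertical axis, percent, mean of 3 libraries) in U251TR, U251MG, U87TR and U87MG. AXL is the widest band in both U87 lines, PDGFRA is at 3.177% in U251TR and 18.5% in U251MG (11.8% without U251MG replicate 2), and PDGFRB is a thin line in the U251 bars.

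Ligands of these receptors were followed as a list of 34 genes, 22 of which were tested. In U251TR 7 were higher and 4 lower than in U251MG, against 33.6% and 19.6% of all tested genes, with a median log2 fold change of 0.14 against 0.10 over all tested genes. PDGFB, the ligand of both PDGF receptors, had 2.85, 3.32 and 2.59 FPKM in U251TR, against 21.73, 19.61 and 20.97 FPKM in U251MG. It fell by 2.48 on the log2 scale (limma, SE 0.10, adjusted p = 2.26e-09), alongside PDGFRA. PDGFA rose, at 13.9 FPKM in U251TR and 7 FPKM in U251MG on average, while PDGFC was 50.4 FPKM in U251TR and 57.6 FPKM in U251MG and did not pass.

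The ERBB ligands of U251TR moved both ways. NRG1, which binds the ERBB2 partners ERBB3 and ERBB4, had 2.83, 3.12 and 3.03 FPKM in U251TR, against 52.02, 13.74 and 51.92 FPKM in U251MG, and fell by 3.12 on the log2 scale (limma, SE 0.37, adjusted p = 2.6e-05), or by 3.73 without U251MG replicate 2, the lowest parental library. EGF rose by 1.72 on the log2 scale (adjusted p = 8.55e-07, limma). It averaged 6.33 ± 0.208 FPKM in U251TR and 1.24 ± 0.378 FPKM in U251MG (SD, n = 3 each). TGFA, the EGFR ligand gene with the highest level in the U251 lines, averaged 31.8 ± 5.3 FPKM in U251TR and 41.5 ± 14 FPKM in U251MG and did not pass. FGF2, the ligand of FGFR1, rose 2.39-fold (SE 0.25 on the log2 scale), and GAS6, the main ligand of AXL, fell by 0.81 (SE 0.11, adjusted p = 6.09e-05, limma). PROS1, which encodes protein S, a ligand of the AXL relatives TYRO3 and MERTK, rose 2.23-fold (SE 0.14 on the log2 scale, adjusted p = 2.24e-05, limma).

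In U87TR 3 ligands were higher and 6 lower than in U87MG, against 10.6% and 17.2% of all tested genes, with a median of -0.15 against -0.05 over all tested genes. The DDR2 ligand genes went opposite ways. COL1A1 had 20.43, 19.13 and 15.62 FPKM in U87TR, against 87.52, 101.77 and 181.78 FPKM in U87MG, and fell by 2.62 on the log2 scale (limma, SE 0.34, adjusted p = 0.000143). COL1A2 rose 2.15-fold, averaging 237.2 FPKM in U87TR and 112.1 FPKM in U87MG (adjusted p = 0.000653, limma).

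In U87TR the EGFR ligand EREG fell by 0.72, as log2 (SE 0.12, adjusted p = 0.000795, limma), with 35.0 ± 5.12 FPKM in U87TR and 58.1 ± 6.9 FPKM in U87MG (SD, n = 3 each). TGFA fell by 1.01 (SE 0.31, adjusted p = 0.0321, limma), but its U87MG libraries were 31.38, 32.75 and 72.92 FPKM and the call was lost without replicate 3, the highest of them, and in 6 more of 15 other settings. FGF1 rose 2.27-fold (adjusted p = 0.000103, limma). HGF, the only ligand of MET in the list, was 12.6 ± 1.5 FPKM in U87TR and 17.7 ± 1.71 FPKM in U87MG and at most 0.31 FPKM in any U251 library. Its fall of 0.46 in U87TR (SE 0.13, adjusted p = 0.0165, limma) was lost without U87TR replicate 3, without U87MG replicate 2 and with a pseudocount of 0.1. BDNF, the ligand of NTRK2, averaged 3.91 FPKM in U87TR and 9.94 FPKM in U87MG. It fell by 1.15 (SE 0.34, adjusted p = 0.0247, limma), a call lost with no filter, without any 1 U87TR library and without U87MG replicate 1 or 2.

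**Figure D5:**
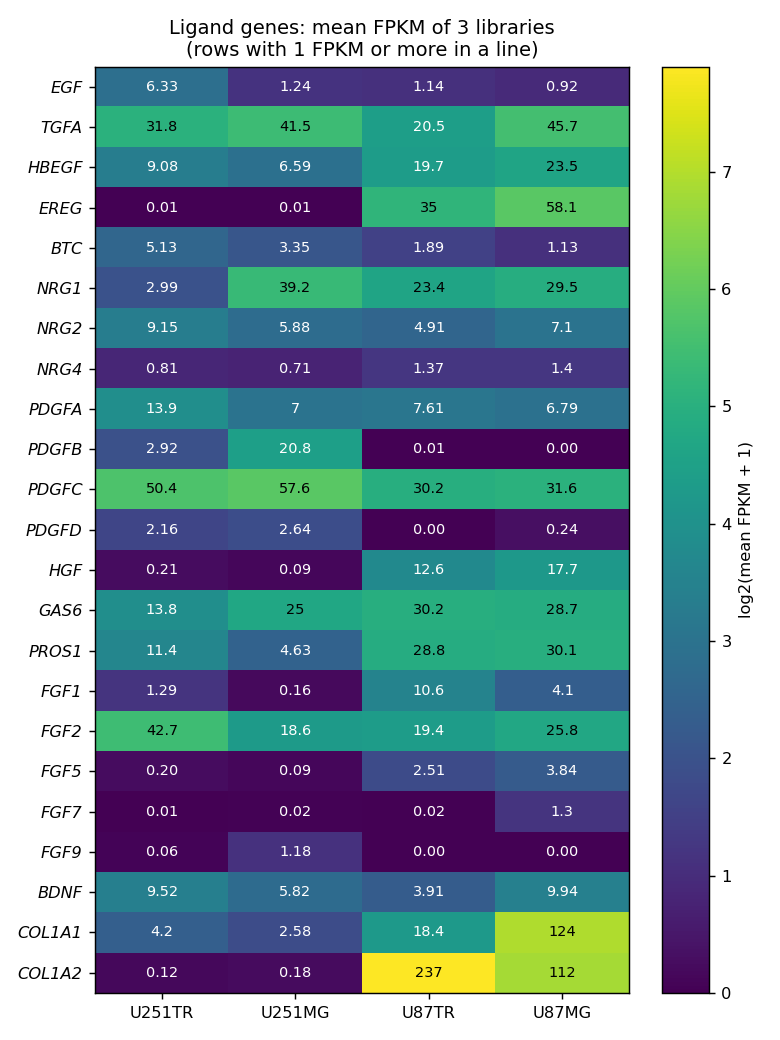
Mean FPKM of 3 libraries (numbers in cells, colour on a log2(mean FPKM + 1) scale) of the 23 ligand genes whose mean reached 1 FPKM in any line, with columns U251TR, U251MG, U87TR and U87MG. Among the genes above 1 FPKM in the U87 columns alone are EREG, HGF, COL1A2, FGF5 and NRG4. Among those above it in the U251 columns alone are PDGFB and PDGFD.

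Other parts of the pathway were counted in the same fit, where 33.6% of all tested genes were higher and 19.6% lower in U251TR, and 10.6% were higher and 17.2% lower in U87TR. Of 28 tested other receptor tyrosine kinases, 14 were higher and 10 lower in U251TR, with a median log2 fold change of 0.38 against 0.10 over all tested genes. The FGF receptor FGFR3 fell by 2.76 on the log2 scale and the Eph receptor EPHA3 by 2.07 (limma). MERTK, a relative of AXL, rose by 2.02 on that scale, with 6.23 FPKM in U251TR and 0.777 FPKM in U251MG. EPHB6, an Eph receptor without kinase activity, rose by 2.47 on the log2 scale and was below 1 FPKM in every U251MG library. In U87TR 5 were higher and 5 lower. PTK7, a receptor of planar cell polarity without kinase activity, fell by 2.15 and the Eph receptor EPHB2 by 1.78, while DDR1 rose 1.76-fold and the AXL relative TYRO3 fell by 0.56.

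Of 14 receptor inhibitors and phosphatases, 2 were higher and 6 lower in U251TR, while in U87TR 5 were lower and 9 did not pass. Of all tested genes, 33.6% were higher and 19.6% lower in U251TR (53.2% called), and 10.6% were higher and 17.2% lower in U87TR (27.8% called). SH2B3, an adaptor that dampens receptor signalling, averaged 42.3 FPKM in U251TR and 22.7 FPKM in U251MG, and 64.3 FPKM in U87TR and 144.4 FPKM in U87MG. Its changes of 0.90 and -1.15 on the log2 scale both passed, as did the difference between them (-2.05, SE 0.24, adjusted p = 2.59e-05, limma). UBASH3B, a phosphatase that acts on tyrosine kinases, likewise rose 1.88-fold in U251TR and fell by 1.06 in U87TR. CBLB, a ubiquitin ligase for activated receptors, fell by 1.26 in U251TR, and PTPRJ, a receptor phosphatase, by 0.99 in U87TR. LRIG1, an inhibitor of ERBB receptors and MET, was 23.4 FPKM in U87MG and 286.0 FPKM in U251MG on average, a log2 fold change of -3.64 (limma, SE 0.28, adjusted p = 2.11e-07).

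Of 23 adaptors and proximal enzymes, 5 were higher and 9 lower in U251TR, and 2 were higher and 6 lower in U87TR. The counts of this paragraph stand beside the same shares of all tested genes. These were 33.6% higher and 19.6% lower in U251TR, and 10.6% higher and 17.2% lower in U87TR. PTPN11, the phosphatase SHP2 that carries the signal to RAS, fell in both, by 0.99 in U251TR (SE 0.10) and by 0.54 in U87TR (SE 0.10). SHC1 and the kinase SRC rose 1.74- and 1.72-fold in U251TR, and IRS1, the main adaptor of IGF1R, fell there by 1.24 (SE 0.30, adjusted p = 0.00459, limma). Of 15 tested genes of the PI3K and AKT arm, 2 were higher and 3 lower in U251TR, and 2 were higher and 5 lower in U87TR. PIK3R3, a regulatory subunit of PI3K, rose in both, 2.60-fold in U251TR and 2.57-fold in U87TR, while RPTOR, the partner of mTOR in complex 1, fell by 1.37 in U87TR. Of 12 genes of the RAS and ERK arm, 2 were higher and 4 lower in U251TR, and in U87TR 2 were lower and 10 did not pass. MAP2K2 fell by 0.58 in U251TR and HRAS by 0.72 in U87TR.

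Genes with the most similar pattern to each receptor were sought by Pearson's r of log2(FPKM + 1) over the 12 libraries. The search covered 8187 tested genes with a mean of at least 10 FPKM in a line and a plain symbol. Symbols with a hyphen or small letter, or with a prefix such as LOC, LINC or MIR, were left out. So were all symbols ending in P, alone or followed by digits, which removes some protein-coding genes. Closer partners may lie among the genes left out. These libraries share 4 lines, so r mostly follows the line means and is given as a description. PDGFRA was closest to PCDH19 (r = 0.994) and SOX21 (0.99), and PDGFRB to CYTH4 (0.997) and ALDOC (0.994). IGF1R was closest to PTPRG (0.993), ERBB2 to SLC2A12 (0.991), DDR2 to HMOX1 (0.984) and AXL to the noncoding host gene SNHG5 (0.98). EGFR, MET and FGFR1 had less similar partners, with PEX19 at 0.937, TRAK2 at 0.943 and ATP13A3 at 0.932. Among the receptors themselves, the closest pair was PDGFRA with IGF1R (0.938) and the most opposed was ERBB2 with DDR2 (-0.95).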

How the data were processed

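RNA from 12 libraries was measured, with values for 31681 gene rows. The table is in FPKM as deposited by the authors, to 2 decimals. No header or label names the unit, which was inferred from column sums of 695282 to 785754 that differ between libraries. The submitters' processing notes name STAR 2.5.2b, RSEM 1.2.31 and build hg19, while the design text names hg38. RSEM shares reads between similar genes by estimate, and no counts were used. Rows whose symbol a spreadsheet had turned into a date (27) were left out.

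The filter kept 15449 genes that reached 1 FPKM in 3 or more libraries. Their log2(FPKM + 1) values entered a group-means model of all 12 libraries (limma 3.58.1 under R 4.3.3, variance trend, robust moderation). The pseudocount of 1 understates the change of low genes. Adjusted p-values are Benjamini-Hochberg, two-sided, threshold 0.05. The fit was also run on simulated data with independent noise in each gene and library. Those data held no library that stood apart and no shift of scaling, so that run does not bear on either. The alternatives were a pseudocount of 0.1 or 5, a filter at 5 FPKM or none, a 2-fold minimum, a replicate block, only the 6 libraries compared, 3 other scalings and each library left out in turn. The receptors, gene lists and tests were chosen with earlier results of these data known. Named list genes were up to 4 per list and comparison with the largest change among those that passed at 5 FPKM or more, plus ligands of the receptors described. The nearest 3 tested genes on each side were taken, in the GRCh38.p14 gene table, for receptors changed at least 2-fold in any comparison. Of 31654 symbols, 19823 matched that table. Promoter sequences are from RefSeq. One list of cell type markers is not reported here.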

Additional observations from a re-analysis of the deposited data

Results flagged for a closer look

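The change from parent to resistant line differed between U251 and U87 for 5 of the 9 tested receptors, against 47.6% of all tested genes. The test was limma's, on the difference itself (U87 change minus U251 change). The separate run of U87TR code numbers cannot be told apart from this difference. EGFR had a difference of -1.33 on the log2 scale (SE 0.20, adjusted p = 0.000204), with the change negative in U87TR and positive in U251TR. PDGFRA had a difference of 2.75 (SE 0.41, adjusted p = 0.000202) and AXL one of 1.17 (SE 0.31, adjusted p = 0.00836), both from lower levels in U251TR. PDGFRB had a difference of 0.75 (SE 0.24, adjusted p = 0.0245) and MET one of -0.75 (SE 0.27, adjusted p = 0.0379), and these were lost in 6 and 12 of 20 other settings. U251MG replicate 2 moves with the values of PDGFRA, AXL and MET, and without it their differences were 2.37, 1.52 and -0.45, all past the threshold.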

How the results depend on the processing

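Over 720 other settings of the 45 tested receptor results, 665 kept their side of the threshold, 38 lost the call, 17 gained one and 0 turned direction while called. Requiring at least 2-fold left 2096 genes in U251TR against U251MG, 802 in U87TR against U87MG, 4884 in U87MG against U251MG, 5031 in U87TR against U251TR and 2846 for the difference. It left 2 receptors in the first of these, 0 in the second and 3 for the difference. Median-of-ratios scaling left 3 receptors in U251TR, and no filter left 3 for the difference. Leaving out 1 library gave 3 to 8 receptors in U251TR, with 3 without U251TR replicate 1 and 8 without U251MG replicate 2. It gave 2 in U87TR each time and 3 to 7 for the difference, with 3 without U251TR, U87TR or U87MG replicate 1. For lost calls with no reason given, the cause was not tested. Same-numbered libraries showed little shared deviation (Pearson's r of -0.06 to 0.13 across comparisons), so the numbers were not taken as pairs. In U87TR against U251TR these r, at 0.08, 0.02 and 0.13, did exceed those with other numbers. With a replicate block, FGFR1 in U87TR (adjusted p = 0.0565) and the MET difference (adjusted p = 0.0504, limma) lost their calls. The share of called genes that were higher depended on scaling: 63.2% in U251TR as reported, 51.3% with median-of-ratios, 72.1% as TPM and 49.3% with quantile normalization. For U87TR the same shares were 38.1%, 49.0%, 46.2% and 48.8%, for U87TR against U251TR 35.1%, 48.9%, 33.4% and 48.7%, and for the difference 32.4%, 47.5%, 27.9% and 48.6%. The all-gene median log2 fold change of U87TR over U251TR was -0.27 as reported and -0.01 with median-of-ratios. The depth is unknown, so no counting error can be given for levels near 0.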

Other observations

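Genes beside the PDGF receptors were read in the same limma fit, for PDGFRA in U251TR against U251MG and for PDGFRB between the parents. Neighbours of the other receptors changed at least 2-fold are not given. Upstream of PDGFRA on chromosome 4, CHIC2 averaged 91.5 FPKM in U251TR and 143.6 FPKM in U251MG, with a log2 fold change of -0.63 (SE of 0.13, adjusted p = 0.00135). Downstream of it, SRD5A3, an enzyme of dolichol synthesis, averaged 31.5 FPKM in U251TR and 6.97 FPKM in U251MG, with a log2 fold change of 2.04 (SE of 0.15, adjusted p = 3.89e-07). KDR, a VEGF receptor among the nearest tested genes downstream, was also higher in U251TR (1.03, SE 0.18, adjusted p = 0.000476), as was SRD5A3-AS1 (0.85). Reads of SRD5A3-AS1 may not be separable from those of SRD5A3, since no strand setting is stated. Upstream, LNX1 was higher in U251TR (0.99, SE 0.16, adjusted p = 0.000227) and GSX2 lower (-0.76, SE 0.25, adjusted p = 0.0212; -0.38 without U251MG replicate 2). Of the 6 neighbours 2 were lower, as PDGFRA was, and 4 were higher, beside 19.6% and 33.6% of all tested genes.

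Between the parents, 4 of 6 neighbours of PDGFRB on chromosome 5 were higher in U87MG, as PDGFRB was, beside 32.2% of all tested genes higher and 72.3% called. CSF1R, the receptor for macrophage colony-stimulating factor, averaged 12.7 FPKM in U87MG and 0.427 FPKM in U251MG (log2 fold change 3.24, SE 0.13, adjusted p = 4.76e-10). ARSI averaged 18.8 FPKM in U87MG and was listed at 0 in U251MG. CD74, the invariant chain of class II antigen presentation, averaged 175.5 FPKM in U87MG and 0.0867 FPKM in U251MG (log2 fold change 7.34, SE 0.15, adjusted p = 1.19e-12). HMGXB3 was higher too (0.69, SE 0.07, adjusted p = 3.59e-06), while RPS20P4 (-0.42) and TCOF1 (-0.06) did not pass. These neighbours were taken by position.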
